A study of Mus musculus with 27 samples.

Results

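The telomere-proximal ends of the mouse autosomes were examined in a Hi-C contact map of C2C12 cells, a mouse myoblast line. On each of chromosomes 1 to 19, an end was taken as the 40 kb bins that start within the last 5 Mb of the chromosome and hold at least 1 contact. This gave 2363 bins in 19 ends, of 59889 autosomal bins and 64004 bins of all chromosomes with a contact. Each end holds 120 to 125 such bins. The rule uses position and the presence of a contact, and not the strength or the partner of any contact. The remaining autosomal bins were split into the first 5 Mb after the first bin with a contact (2352 bins, called starts here) and everything between (55174 bins, called the interior).

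The study asked how the Firre locus shapes chromosome folding, and it also holds RNA-seq of mouse embryonic fibroblasts (MEFs). The Hi-C sample is labelled wild type in genotype and as the C2C12 muscle cell line, with 2 replicates that the authors pooled into 1 matrix; the map holds no marker of cell type, and the karyotype of the line was not examined here. RNA-seq of 6 wild-type MEF libraries, 3 female and 3 male, was used here only for the level of the genes that lie in the ends, and MEFs are another cell type than C2C12. As the Hi-C matrix is 1 pooled sample, no spread between replicates can be given and no test was made. All intervals below scale a ratio by the exact Poisson 95% bounds of its summed read pairs, and they cover counting error only. Every read pair has equal weight in them, so they are too narrow where a few bin pairs hold much of the corrected signal.

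Mouse autosomes are telocentric. The centromere lies next to one telomere, at the start of the sequence, and the far end of the sequence is the distal telomere. Telomeres are arrays of the repeat TTAGGG bound by the shelterin proteins, which keep the chromosome tip from being treated as a break. Within the nucleus each chromosome keeps mostly to a territory of its own, so contacts between chromosomes (trans contacts) are far rarer per bin pair than contacts within a chromosome (cis contacts), and cis contacts fall steeply with distance. Hi-C joins DNA that lies close together in fixed nuclei and counts the joined pairs. Here the enzyme HindIII, which cuts at AAGCTT, set where joining was possible.

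The mm9 assembly runs into the telomeric repeat on some chromosomes only. A run of at least 3 TTAGGG or CCCTAA units in a row, on either strand, was found within the last 1000 bases of 4 of 19 autosomes: chromosomes 2, 5, 11 and 18. The last 80 bases of chromosome 2 are shown with those of chromosomes 10 and 19, the pair of ends with the highest contact ratio below. All are given on the plus strand of mm9, with TTAGGG and CCCTAA in capitals.
Chromosome 2 (chr2:181748008-181748087): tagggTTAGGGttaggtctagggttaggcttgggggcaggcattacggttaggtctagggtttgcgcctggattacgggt
Chromosome 10 (chr10:129993176-129993255): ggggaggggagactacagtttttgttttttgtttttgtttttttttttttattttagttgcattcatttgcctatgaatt
Chromosome 19 (chr19:61342351-61342430): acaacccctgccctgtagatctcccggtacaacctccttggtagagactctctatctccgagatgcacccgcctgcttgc
Chromosome 2 closes on a degenerate form of the repeat, and chromosomes 10 and 19 on other sequence. The ends as a whole hold 79 of the 503 autosomal runs (15.7%) in 3.84% of the autosomal length, and 18 of 19 ends hold at least 1. The last HindIII site lies 7 to 10823 bases before the end of the sequence, with a median of 3099.

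Ends were in contact with ends of other chromosomes more often than interiors were with interiors. For each pair of autosomes, the mean corrected signal per bin pair between the ends was divided by the mean between the interiors of the same chromosomes. The median of this end-end ratio was 1.82 (range 0.708 to 4.80), and it was above 1 in 161 pairs and below 1 in 10. Among 87221 pairs of interior 5 Mb windows measured in the same way, 37.8% were above 1 and the median was 0.890. The ratio was above 1.5 in 123 end pairs and above 2 in 67, against 8.79% and 2.8% of interior window pairs. Summed over all pairs, the ratio was 1.93 (1.89 to 1.98) from 8100 read pairs.

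Single pairs rest on few read pairs, 17 to 203 with a median of 42. The interval lay wholly above 1 in 131 end pairs, against 9.42% of interior window pairs. It spanned 1 in 40 end pairs and lay below 1 in 0. The 131 include ends 11 and 18, where 1 bin pair of 3 read pairs gave 72.4% of the signal. Set against the interior window pairs of the same chromosomes, the end-end block was higher than a median of 95.9% of them, higher than 90% of them in 131 pairs, and higher than every one in 6.

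Ends met other ends more than they met interiors or starts. The ratio of ends with the interiors of other chromosomes had a median of 1.15 and was above 1 in 156 pairs. The ratio of ends with the starts of other chromosomes had a median of 1.02 and was above 1 in 90 pairs. The end-end ratio was the higher of the 2 in 153 pairs against end with interior, and in 153 against end with start. Starts were also in contact with each other, with a median ratio of 2.01, and the end-end ratio exceeded the start-start ratio in 80 pairs. The start-start values were far more spread, up to 24.7.

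**Figure D1:**
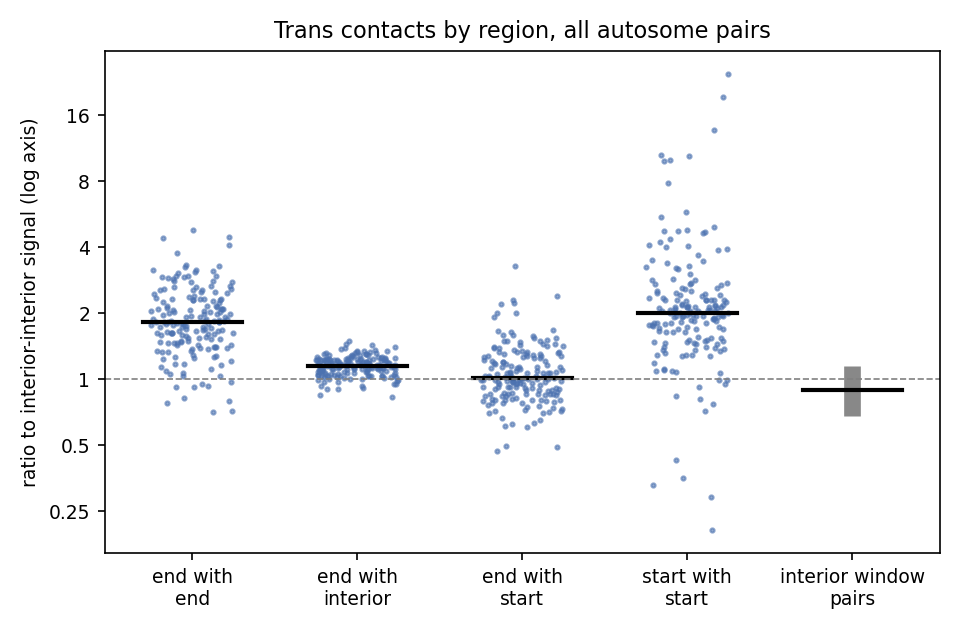
Ratio of trans signal to the interior-interior signal of the same autosome pair (log axis), for ends with ends, ends with interiors, ends with starts and starts with starts. Each point is 1 pair of autosomes and black lines are medians; the grey bar spans the middle 50% of 87221 pairs of interior 5 Mb windows. Ends with ends (median 1.82) and starts with starts (2.01) sit above the other classes, and ends with starts are centred near 1 (1.02).

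The 3 pairs with the highest ratio all involved the ends of chromosomes 11 or 19. Ends 10 and 19 had 4.80 (4.01 to 5.71) from 128 read pairs. Ends 11 and 19 had 4.45 (3.86 to 5.11) from 203 read pairs, the most of any pair. Ends 2 and 11 had 4.38 (3.40 to 5.57) from 67 read pairs. These 3 differ in how concentrated they are. A single bin pair gave 48.8% of the signal between ends 2 and 11 and 23.4% between ends 10 and 19, but the strongest bin pair gave only 4.60% between ends 11 and 19. The values also depend strongly on the tips. Without the last 200 kb the ratios of these pairs were 1.36, 1.83 and 1.97 in the same order, with ends of 2 Mb 22.4, 14.9 and 18.8, and with ends of 10 Mb 1.95, 2.20 and 2.12. When each bin pair with a contact was counted once they were 2.52, 4.23 and 2.04. Without bin pairs of 5 or more read pairs, an alternative chosen after seeing the data, they were 3.20, 3.25 and 2.25, so the order of the pairs is not fixed. Ends 2 and 11 also had 2.32 without the 1% of bins with the highest trans share, 2.51 with the signal capped at its 99th percentile, and 2.88 from read pairs.

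The lowest pairs did not show a deficit beyond counting error. Ends 11 and 13 had 0.708 (0.427 to 1.11) from 19 read pairs, ends 14 and 17 had 0.718 (0.439 to 1.11) from 20, and ends 3 and 11 had 0.784 (0.472 to 1.22) from 19. With ends of 10 Mb the same pairs had 1.10 (0.920 to 1.31), 1.09 (0.908 to 1.30) and 1.34 (1.10 to 1.61). With ends of 2 Mb they rest on 3, 2 and 2 read pairs and had 1.07 (0.221 to 3.14), 0.587 (0.0710 to 2.12) and 0.338 (0.0409 to 1.22), each interval spanning 1. With ends of 5 Mb, the end of chromosome 11 is in 2 of the highest and 2 of the lowest pairs.

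**Figure D2:**
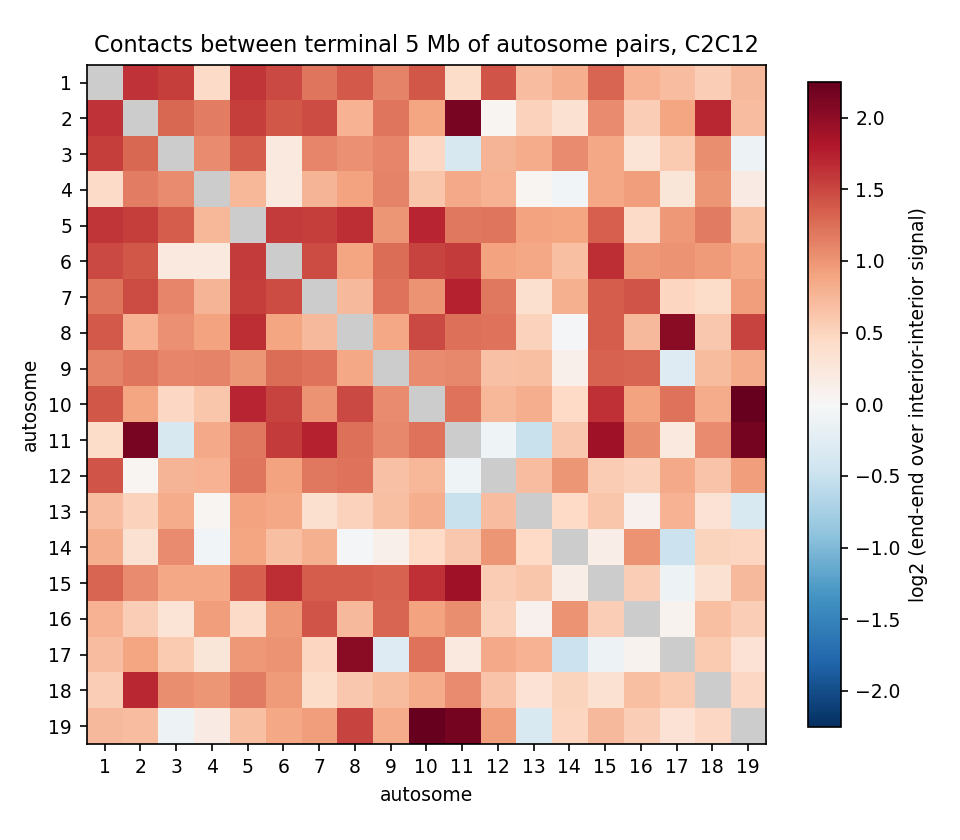
The log2 end-end ratio for every pair of autosomes; rows and columns are chromosomes 1 to 19, red is above and blue below the interior-interior signal, and grey is the diagonal. Most cells are red (161 pairs above 1 and 10 below), with the deepest red for pairs 10 and 19, 11 and 19, 2 and 11 and 8 and 17.

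Over its 18 partners, every end had a median ratio above 1, from 1.40 to 2.30. The highest medians were those of the ends of chromosomes 5 (2.30), 1 (2.23) and 7 (2.20), and for each of these all 18 partners gave a ratio above 1. The lowest were those of chromosomes 14 (1.40), 13 (1.49) and 17 (1.498). The order within each of these groups was not fixed. End 7 was above ends 5 and 1 without the 1% of bins with the highest trans share (2.57), when each bin pair with a contact was counted once (2.87), with capped signal (2.60), from read pairs (2.96) and, as an alternative chosen after seeing the data, without bins under 100 read pairs (2.47). End 1 was above the other two without the last 200 kb (2.16). End 17 was below ends 13 and 14 from read pairs (1.26), when bin pairs were counted once (1.31) and with ends of 10 Mb (1.23), and end 13 had 1.89 against GC-matched windows. With ends of 5 Mb and corrected signal, 15 of 18 partners were above 1 for chromosomes 14 and 17 and 16 of 18 for chromosome 13. The end of chromosome 5 (chr5:147560001-152537259) ranged from 1.34 to 3.30 over its partners and was highest with chromosome 10. That of chromosome 1 (chr1:192200001-197195432) ranged from 1.34 to 3.08 and was highest with chromosome 2. That of chromosome 7 (chr7:147560001-152524553) ranged from 1.29 to 3.31 and was highest with chromosome 11. The end of chromosome 14 (chr14:120200001-125194864) ranged from 0.718 to 2.10, with chromosome 3 as its strongest partner. That of chromosome 13 (chr13:115320001-120284312) ranged from 0.708 to 1.88, with chromosome 5 as its strongest. That of chromosome 17 (chr17:90280001-95272651) ranged more widely, from 0.718 to 4.11, with chromosome 8 as its strongest. The ranges of the highest and lowest ends overlap, so ends are not separated by their medians.

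Along each chromosome, the terminal window was usually the one that met the other ends most. The signal of every 5 Mb window with the 18 other ends was compared on each autosome, and the terminal window had the highest value on 15 of 19 autosomes, where 4.06% of all windows rank highest. It was among the top 3 on 17. Its value over the interior-interior signal was 1.42 to 2.36, above 1 on 19 of 19 autosomes, against 71.4% of interior windows, whose median was 1.12. The starts had a median of 1.13. The exceptions were chromosomes 4 and 13, where the end ranked 4, and chromosomes 7 and 9, where it ranked 2. On chromosome 4 the window just inside the end was higher (2.34) than the end itself (1.62). On chromosome 13 an interior window reached 1.68 against 1.42 for the end.

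Contact between ends was steepest over the outermost part of the chromosome. The last 1 Mb had 3.01 times (2.92 to 3.09) the interior-interior signal in its contacts with the other ends, and the next 1 Mb bands had 1.76, 1.66, 1.71 and 1.53. Beyond the end as defined here, the sixth band still had 1.60 and the band at 20 to 21 Mb had 1.25, so there is no step at 5 Mb. Of the 95 bands of 1 Mb in the ends, 94 were above 1, and the lowest was the innermost band of chromosome 14 (1.00). Bands outside the ends were mostly above 1 too. This held on 19 of 19 autosomes at 5 to 6 Mb, 17 at 10 to 11 Mb and 15 at 20 to 21 Mb. In 200 kb bands the values were 5.63 (5.33 to 5.93) for the last 200 kb, 3.04 for the next, 2.22 for the third, and 1.70 at 1.8 to 2 Mb. For the last 200 kb, all 19 ends were above 1, from 1.35 on chromosome 13 (0.823 to 2.08) to 12.6 on chromosome 11. At 1.8 to 2 Mb, 18 of 19 were. Some of this signal lies in bin pairs between last bins that reach the telomeric repeat, described below. Without them chromosome 11 had 7.66. Chromosome 2 went from 11.8 to 5.49 and chromosome 18 from 8.54 to 2.76.

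**Figure D3:**
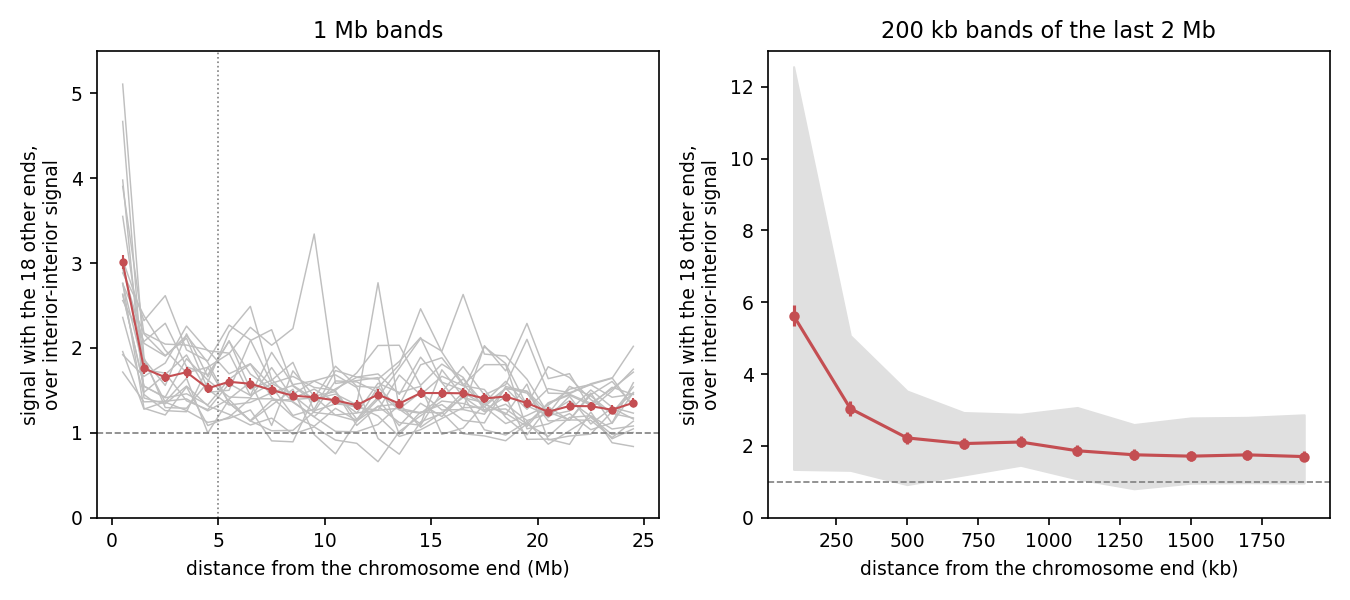
Signal with the 18 other ends over the interior-interior signal, against distance from the chromosome end. Left, 1 Mb bands, with grey lines for single autosomes, red for all autosomes pooled with 95% counting intervals, and a dotted line at 5 Mb; right, 200 kb bands of the last 2 Mb, with grey for the range over ends. The pooled value falls from 3.01 in the last 1 Mb to 1.53 at 4 to 5 Mb, and from 5.63 in the last 200 kb to 1.70 at 1.8 to 2 Mb.

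The last 1 Mb differed between chromosomes. Its signal with other ends was highest for chromosome 2 (5.11, 4.62 to 5.63), then chromosome 11 (4.67, 4.26 to 5.11), chromosome 19 (3.98, 3.61 to 4.37) and chromosome 10 (3.90, 3.46 to 4.39). The intervals of chromosomes 2 and 11 overlap, as do those of 11 and 19 and of 19 and 10. This order depends on which strong bin pairs are counted. Some of these join last bins that reach the repeat, which are described below. An alternative chosen after seeing the data left out the bin pairs between last bins that reach the repeat. Chromosome 19 (3.98) and chromosome 10 (3.90) then kept their values and were highest. Chromosome 2 had 3.85 (3.46 to 4.28), chromosome 11 had 3.69 (3.36 to 4.04), and chromosome 18 went from 2.996 to 1.84. Without all bin pairs of 5 or more read pairs, chromosomes 2 (3.81) and 11 (3.62) were highest, then chromosomes 10 (3.30), 8 (3.29) and 19 (3.09). The pooled value of the last 1 Mb was 2.82 and 2.73 in these settings, and that of the last 200 kb 4.69 and 4.30. With all bin pairs the last 1 Mb was lowest for chromosome 13 (1.72, 1.45 to 2.02), chromosome 9 (1.92, 1.62 to 2.26) and chromosome 14 (1.96, 1.60 to 2.37), whose intervals overlap each other and lie below those of the highest 4.

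Distance from the tip on both chromosomes mattered together. Between the last 1 Mb of one autosome and the last 1 Mb of another, the pooled ratio was 6.72, with 1028 read pairs, and the median over pairs of autosomes was 3.91. Between the last 1 Mb and the next 1 Mb it was 2.39, and between bands at 1 to 2 Mb on both it was 1.55. The tip-with-tip ratio was above 1 in 142 pairs, and 14 pairs held no contact there at all. Between bands at 1 to 2 Mb on both autosomes 106 pairs were above 1, and at 2 to 3 Mb 89. At 3 to 4 Mb 88 pairs were above 1, and at 4 to 5 Mb 74. In the same order, 38, 50, 49 and 66 pairs held no contact there. The share above 1 among interior bands of this size was not computed. With every bin pair counted once however many read pairs it held, the tip-with-tip ratio was 4.84, and without the bin pairs of 5 or more read pairs it was 5.39. In 5 Mb windows the ratio was 1.93 for the outermost windows, 1.51 for the outermost with the next, 1.36 for the next with each other and 1.14 at 15 to 20 Mb on both.

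**Figure D4:**
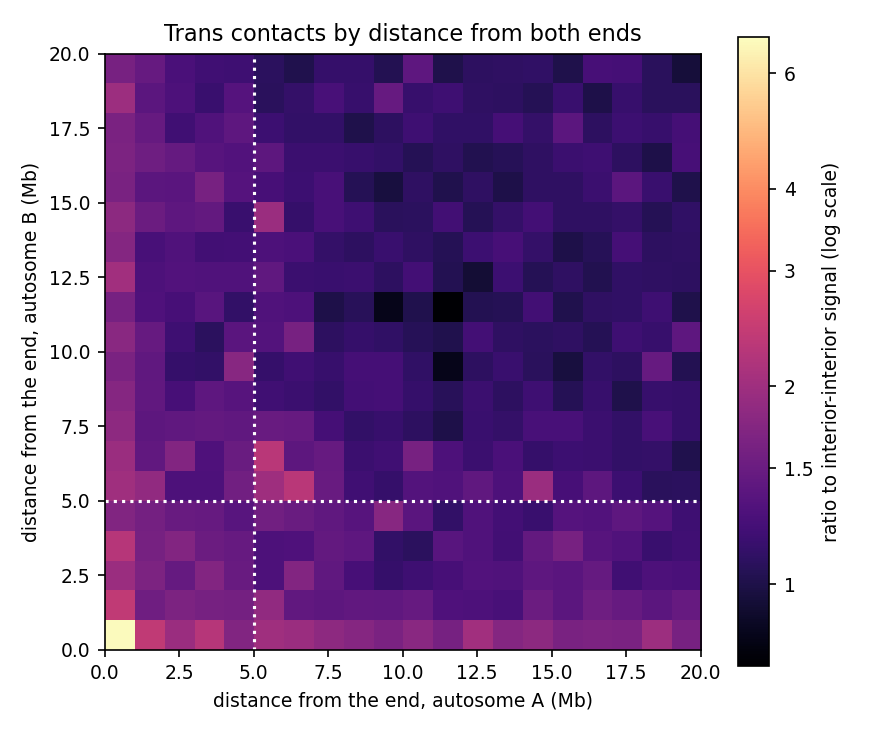
Pooled trans ratio (log colour scale) in squares of 1 Mb by 1 Mb, against the distance from the end on both autosomes; dotted lines mark 5 Mb. The corner square is 6.72, its neighbours are 2.39, and squares beyond 5 Mb on both autosomes run from 0.761 to 2.31.

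Most of the end-end signal came from single read pairs, but a few bin pairs at the tips were strong. Of the 7280 bin pairs between ends with a contact, 92.7% held 1 read pair and 25 (0.343%) held 5 or more, against 0.0604% of interior-interior bin pairs with a contact. Of these 25, 19 had both bins within 300 kb of their chromosome ends, and 13 of the 19 involved chromosome 19. All 5 bin pairs of 10 or more read pairs lay there. The strongest were the last bin of chromosome 2 with the last bin of chromosome 18 (37 read pairs), the last bin of chromosome 10 with a bin that starts 142 kb before the end of chromosome 19 (37), and the last bin of chromosome 2 with the last of chromosome 11 (18). Bins of the last 84 kb of chromosome 11 met many neighbouring bins of chromosome 19 with 5 to 8 read pairs each.

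Read pairs joined the last bins of the 4 chromosomes that reach the telomeric repeat. How reads from the repeat were placed on these chromosomes was not tested, and a read pair between them may not mark a contact. Of the 6 bin pairs among chromosomes 2, 5, 11 and 18, 5 held a contact, with 63 read pairs in all. Of 56 pairs of 1 such last bin with a last bin without the repeat, 0 held a contact, which allows a share of up to 5.36%. Of 91 pairs without the repeat on either side, 4 did, with 8 read pairs in all. The last bin of chromosome 13 had no contact anywhere in the map and was left out.

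Some strong bin pairs also share sequence, and the part of shared sequence in these contacts was not tested. The last bins of chromosomes 2 and 18 hold an identical stretch of 267 bases, and those of chromosomes 2 and 11 one of 178 bases. The strongest bin pair of ends 10 and 19 holds an identical stretch of 159 bases without the repeat, at chr10:129986531-129986689 and chr19:61236512-61236670 on the same strand, and 11.99% of its distinct 31-base words are shared. The first 120 bases of that stretch are shown because they lie in the bin pair that leads the highest of all end pairs.
Chromosome 10 (chr10:129986531-129986650): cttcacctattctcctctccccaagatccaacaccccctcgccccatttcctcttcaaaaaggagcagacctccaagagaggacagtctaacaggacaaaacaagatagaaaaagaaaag
Over all bin pairs between the last 400 kb of different ends, the median share of common 31-base words was 0.250% for bin pairs without a contact, 0.396% with 1 read pair, 0.482% with 2 to 4 and 0.987% with 5 or more. Over 5% was shared by 6.08% of the 16503 bin pairs without a contact, 4.68% of those with 1 read pair, 0 of 48 with 2 to 4, and 4 of 19 (21.1%) with 5 or more. The bin pairs of chromosomes 11 and 19 with 5 or more read pairs shared 2.52% at most.

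The ends gave more of their signal to other autosomes than the interior did. The median bin of an end had 14.98% of its signal in trans, against 12.3% in the interior and 15.4% in the starts. By chromosome, the median was higher in the end than in the interior on 18 of 19 autosomes, from 11.6% to 19.1% against 11.3% to 14.7%. The gap depended on the length of the end, with 4.30 percentage points for ends of 2 Mb and 1.64 for ends of 10 Mb. A bin near a chromosome tip has cis neighbours on 1 side only, and how much this adds to the trans share was not tested.

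Depth and base composition of the ends are close to those of the interior but not equal. The median bin held 629 read pairs in the ends and 638 in the interior. GC content was 43.8% in the ends and 41.9% in the interior, and the end was the higher on 14 of 19 autosomes. Across the 19 ends, the median end-end ratio had a Pearson correlation of 0.53 with GC content, 0.63 with chromosome length, -0.44 with HindIII sites per bin and -0.09 with the trans share. These are descriptions over 19 ends of 1 pooled matrix, and the measures are not independent of each other. Against interior windows within 1 percentage point of the GC content of the chromosome's own end, which 16 autosomes have, the median end-end ratio was 1.92 over 120 pairs, and 1.86 for the same pairs against the whole interior. Chromosomes 11, 17 and 19 have no such window, so the GC of their ends cannot be matched. Chromosomes 4, 7 and 18 are matched by 1 window each.

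In cis, contact of the ends with the rest of the chromosome was compared with interior pairs of the same chromosome at the same distance. No common direction held for all chromosomes. Within 5 Mb the median ratio was 1.10 and 12 of 19 autosomes were above 1, against 45.6% of interior windows measured towards the centromere. At 5 to 10 Mb it was 1.19 (12 of 19, background 44.2%), at 10 to 20 Mb 1.13 (15 of 19, background 45.8%) and at 20 to 40 Mb 1.12 (11 of 19, background 48.5%). At 40 to 80 Mb it was 1.04 (11 of 19, background 47.5%). At 80 to 190 Mb it was 0.921, with 8 of the 17 autosomes long enough above 1 and a background of 45.1%; with ends of 10 Mb, 4 autosomes were above 1. By the count above 1, the class of 10 to 20 Mb lies farthest from its background. By median it is that of 5 to 10 Mb, where interior windows had 0.976, against 0.981 at 10 to 20 Mb. Starts with the interior had medians of 1.18, 1.30, 1.26, 1.11, 1.13 and 1.12 from the nearest to the farthest class. They were above 1 on 15, 17, 15, 12, 13 and 10 autosomes, so an excess in cis is not particular to the ends.

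The spread between chromosomes was wider than the shift of the medians. Chromosomes 2, 3, 10, 16, 17 and 18 were above 1 in every distance class they have, and chromosomes 11 and 19 were below 1 in every one. The end of chromosome 11 had 0.779 within 5 Mb, 0.626 at 5 to 10 Mb and 0.487 at 80 to 190 Mb. The end of chromosome 15 had 0.644 within 5 Mb, 1.01 at 10 to 20 Mb and 0.433 at 80 to 190 Mb, the lowest of all. Chromosome 18 rose from 1.24 at 10 to 20 Mb to 1.56 at 40 to 80 Mb.

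**Figure D5:**
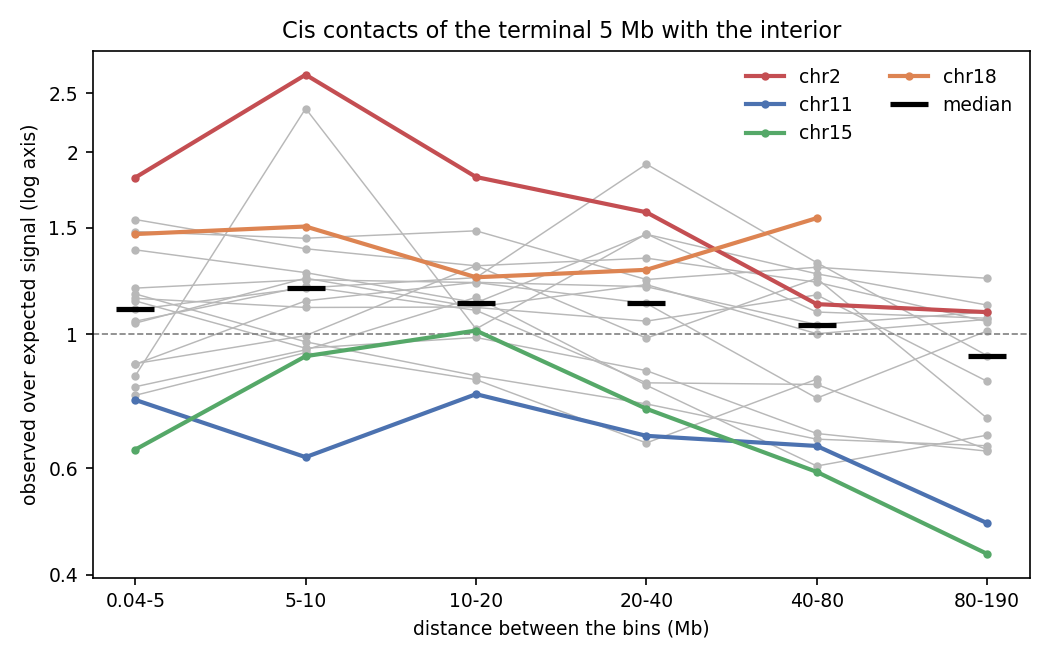
Observed over expected cis signal (log axis) between the terminal 5 Mb and the interior, by distance between the bins; each line is 1 autosome, black bars are medians, and 4 autosomes are coloured. Medians run from 1.10 within 5 Mb to 0.921 at 80 to 190 Mb, while single autosomes span 0.433 to 2.68.

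With all bins, both cis values above 2 were those of chromosomes 2 and 4 at 5 to 10 Mb. On chromosome 2 the value of 2.68 holds 1 bin pair, chr2:168680001-168720000 with chr2:176760001-176800000, that carries 30480 of the 34260 read pairs of its class. Without it the value was 2.30. On chromosome 4 the value was 2.36. Once bins under 100 read pairs were left out, the values were 2.12 on chromosome 4 and 2.82 on chromosome 2. Chromosome 2 within 5 Mb then also passed 2, with 2.61 from 3812 bin pairs against 1.81 from 6682.

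Within the ends, contacts were slightly more frequent than within the interior at matched distance. The median ratio was 1.10, and 17 of 19 autosomes were above 1, against 50.9% of interior 5 Mb windows. The highest were chromosome 6 (1.24) and chromosome 8 (1.24), and the 2 below 1 were chromosome 10 (0.967) and chromosome 18 (0.944). Within the starts the median was 1.05, with 15 of 19 autosomes above 1.

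Gene content differed widely between ends. Together they hold 1143 of 21418 autosomal protein-coding genes (5.34%) in 3.83% of the length, or 12.1 genes per Mb against 8.53 elsewhere. The pooled density comes from a few ends, led by chromosomes 10 (32.6 genes per Mb), 15 (30.4), 7 (26.0) and 11 (22.4). The median end had 8.20 genes per Mb, and 9 ends were above and 10 below the density elsewhere. The number per end runs from 6 on chromosome 17 to 163 on chromosome 10, with a median of 41. Across the 19 ends, gene number and median end-end ratio had a Pearson correlation of 0.52 and a Spearman correlation of 0.58, again as a description. The last annotated protein-coding gene stops 0.035 to 193 kb before the end of the sequence.

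Slightly more of the genes in the ends were expressed in wild-type MEFs. In the 3 female libraries, 56.6% ± 0.748 (SD, n = 3) of them reached 1 approximate TPM (a length-corrected share of transcripts, from expected counts and exon length), against 53.5% ± 0.629 of the other autosomal genes. In the 3 male libraries the values were 56.6% ± 0.713 and 52.8% ± 0.0739. The share was higher in the ends in 6 of 6 libraries, which all score the same genes. The SD and this count cover differences between libraries only, and the spread from gene to gene was not estimated. These levels are not from C2C12.

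The 3 ends with the highest contact carry the following genes, with approximate TPM as the mean ± SD over 6 MEF libraries. The last gene of chromosome 5 is Rfc3, a subunit of the clamp loader of DNA replication (13.2 ± 0.387), and its most expressed gene is Pomp, which assists proteasome assembly (374 ± 34.2). Chromosome 1 ends with Cr2, a complement receptor of B cells (0.0777 ± 0.0348), 193 kb before the tip, and its most expressed gene is Nenf, which encodes the secreted protein neudesin (81.9 ± 6.38). Chromosome 7 ends with Mrgprd, a receptor of sensory neurons at 0 in all 6 libraries, and its most expressed gene is Igf2, a fetal growth factor (886 ± 188).

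The 3 ends with the lowest median end-end ratio carry fewer genes than these 3. They hold 26 on chromosome 14, 18 on chromosome 13 and 6 on chromosome 17, against 40, 43 and 129 on chromosomes 1, 5 and 7. Chromosome 14 ends with Fgf14, a partner of sodium channels (0.326 ± 0.160), and its most expressed gene is Ipo5, a nuclear import receptor (392 ± 19.4). Chromosome 13 ends with Gm7120 (22.5 ± 3.94) and its most expressed gene is Paip1, which binds the poly(A)-binding protein (73.6 ± 6.81). Chromosome 17 ends with 2610044O15Rik (2.95 ± 0.515), and its most expressed gene, Mettl4, a methyltransferase, has only 9.17 ± 1.65.

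Well known gene clusters lie in some ends. The distal imprinting cluster of chromosome 7 holds 15 of the 34 imprinted genes listed, a list that was drawn up around that cluster. Igf2, the non-coding RNA H19 (mean 889, lowest 540, highest 1444 approximate TPM) and the insulin gene Ins2 lie 2 to 3 Mb from the tip, in a band with 1.98 times (1.71 to 2.27) the interior-interior signal in its contacts with other ends. The growth inhibitors Cdkn1c and Phlda2 lie at 1 to 2 Mb, in a band with 2.38 (2.07 to 2.72). The fast skeletal troponins Tnni2 and Tnnt3, which are part of the contractile apparatus that myoblasts build on differentiation, lie beside H19 in the 1.98 band, and they are the 2 of 41 listed skeletal muscle genes in an end (4.88%, against 5.34% of all protein-coding genes).

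The HoxC cluster, which sets position along the body axis, lies in the last 1 Mb of chromosome 15 with 9 of the 39 Hox genes listed (23.1%). Its band had 2.56 times (2.28 to 2.87) the interior-interior signal in its contacts with other ends, from 299 read pairs. The same end holds 24 of the 51 keratin genes whose symbols start with Krt (47.1%). Olfactory receptor genes are split, with 58 in the end of chromosome 10 and 12 in that of chromosome 7, out of 1106 (6.33%). Of all autosomal protein-coding genes, 5.34% lie in an end.

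Of 17 telomere maintenance genes listed, 2 lie in an end (11.8%, against 5.34% of all autosomal protein-coding genes). Rtel1, a helicase that opens telomeric loops, lies 0.675 Mb from the tip of chromosome 2, in a band with 5.11 times the interior-interior signal with other ends, or 3.85 without the bin pairs between last bins that reach the repeat, and had 14.8 approximate TPM in MEFs. Zbtb48, a protein that binds telomeric repeats, lies 4.23 Mb from the tip of chromosome 4, in a band with 1.77, and had 4.96.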

How the data were processed

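Hi-C of C2C12 and RNA-seq of MEFs were used. Per the labels and the study's methods, the authors digested cross-linked nuclei with HindIII, pooled 2 replicates, mapped them to mm9, binned them at 40 kb and corrected the matrix iteratively with HiC-Pro 2.7.8 (the submitters' processing notes), so that bins have near equal totals. The deposited signal is therefore relative, without unit, and the deposited bin list gives each bin a number (other). The extraction text of the Hi-C labels speaks of MEFs from embryos, although the sample is the C2C12 line. The MEF table holds expected counts that the authors estimated with RSEM 1.2.29 and Bowtie2; 0 of its value columns were left unmapped. The 6 wild-type libraries had 42986500 to 62283500 expected counts in all.

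Read pairs behind the signal were recovered by dividing each value by a product of 2 bin factors. Of bin pairs in trans, 99.999848% came out whole within 0.02, and 99.996337% in cis, giving 25004781 read pairs, of which 11.4% were in trans. Chromosome lengths equal those of the NCBIM37 genome used for sequence, GC content and HindIII sites, and genes came from GENCODE M1.

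Trans ratios divide the mean signal per bin pair, absent pairs counting as 0, by that between the interiors of the same 2 autosomes. Cis ratios divide summed signal by that expected from interior pairs at the same distance in bins. Interior windows of 5 Mb were tiled back from the end and needed 100 bins with a contact. Approximate TPM is the expected count over summed exon length, scaled to a fixed total.

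The procedure was tested on simulated data. Ends were named if among the 3 highest or 3 lowest medians, or in the 3 highest or lowest pairs; genes if the last or most expressed of those 6 ends, or listed. The members and lists were chosen with earlier results of these data known. The sources used here do not say whether the MEF libraries came from separate embryos, so their SD may be technical. CTCF ChIP-seq was not analysed here, and some terminal sequence is not reported here. Python 3.11, numpy, scipy and pandas were used.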

Additional observations from a re-analysis of the deposited data

How the results depend on the processing

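No paired analysis was possible because the results come from no test and the Hi-C replicates were pooled into 1 matrix. The median end-end ratio stayed above 1 under every alternative, and the terminal window was highest on 12 to 16 autosomes under the 7 alternatives for which the rank was computed. A value counted as moved when it left the counting interval of the summed read pairs, which is narrow, so most of the moves below are small; end with start, whose interval includes 1, was the only median ratio to cross 1. With ends of 2 Mb the median ratios were 2.54 for end with end, 1.27 for end with interior and 1.19 for end with start, the trans share was 4.30 percentage points above the interior, the cis ratios were 1.07, 1.32, 1.205, 1.09, 1.01 and 0.944 from the nearest to the farthest distance class, and the ratio within ends was 1.11. With ends of 10 Mb the same values were 1.54, 1.07, 0.987, 1.64, then 1.08, 1.11, 1.17, 1.19, 1.00 and 0.861, and 1.07, with 4 autosomes above 1 in the farthest class in place of 8. Without the last 200 kb, end with end was 1.68, end with interior 1.13, the trans share 2.51 points higher, and the cis ratios beyond 5 Mb were 1.17, 1.11, 1.08, 1.01 and 0.906. Without the 1% of bins with the highest trans share, the trans ratios were 1.88, 1.19 and 1.07, the ratio within ends 1.10, and the cis ratios 1.11 at 10 to 20 Mb and 1.10 at 20 to 40 Mb. With the share of bin pairs that hold a contact in place of the signal, end with interior was 1.2004 and end with start 1.07. With trans signal capped at the 99th percentile the 3 trans ratios were 1.94, 1.196 and 1.06, and with read pairs in place of corrected signal 1.91, 1.21 and 1.07. Against GC-matched windows they were 1.92, 1.204 and 0.977, with 86 pairs above 1 for end with interior and 58 for end with start, of the 120 pairs that could be matched. With the median interior window as the expected value, the cis ratios were 1.12 within 5 Mb, then 1.18, 1.09, 1.02 and 0.899 beyond 10 Mb, and 1.12 within ends. Leaving out each autosome in turn gave median end-end ratios of 1.78 to 1.87.

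Further alternatives were chosen after seeing the data. Without bins under 100 read pairs, the trans ratios were 1.92, 1.19 and 1.09, the ratio within ends 1.10, and the cis ratios 1.11 at 10 to 20 Mb and 1.10 at 20 to 40 Mb. Without the strongest bin pair of each chromosome and distance class, they were 1.09 within 5 Mb and 1.10 within ends. Without trans bin pairs of 5 or more read pairs, the trans medians stayed inside their intervals, but ends 10 and 19, 11 and 19, and 2 and 11 went from 4.80, 4.45 and 4.38 to 3.20, 3.25 and 2.25. The gap in the share of expressed MEF genes, 3.44 percentage points, was 2.60 with a threshold of 5 approximate TPM, and 3.22 to 3.53 when each library was left out. Depth limits single pairs of ends, whose intervals have an upper bound 1.32 to 2.75 times the lower one. The causes of these shifts were not tested.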

Other observations

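Chromosome X is not an autosome and entered no comparison above, but its distal end can be measured the same way. Its terminal 5 Mb (125 bins) had 2.40 times (2.24 to 2.58) the signal with the 19 autosome ends that the interior of X had with autosome interiors, from 783 read pairs. With autosome interiors the terminal 5 Mb of X had 0.951 (0.932 to 0.970), and the interior of X had 1.02 (0.998 to 1.03) with autosome ends. The autosome ends, each pooled over the 18 others in the same way, had 1.42 to 2.36. The value of X lies above all 19, though its interval includes the highest of them. No explanation was tested.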
